A study of Mus musculus with 6 samples.

Results

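Aminoacyl-tRNA synthetases are described here as a set of 36 genes, of which 20 encode cytosolic enzymes or their subunits and 16 encode mitochondrial enzymes. The members were taken by name, with names ending in 2 for the mitochondrial enzymes, a rule that uses no measured value. All 36 were found among the 19973 genes of the deposited table, and all 36 were among the 11795 genes with a mean of at least 10 normalized counts that were tested. The libraries came from peritoneal macrophages of male C57BL/6 mice, a common inbred laboratory strain, aged 18 months (old) or 2 months (young). Every mouse of both ages had received 200 µg of zymosan A, a yeast cell wall preparation that starts a peritoneal inflammation, and peritoneal cells were collected 72 hours later. The cells were kept overnight in DMEM with L-cell medium, a source of macrophage growth factor, the unattached ones were washed off and the rest were given vehicle (phosphate-buffered saline) for 6 hours. There were 3 old and 3 young libraries. The labels name 3 mice per group and triplicate sequencing of RNA without saying which of them a library stands for, so the spread behind every p-value is that of these libraries and may be technical in part.

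Each aminoacyl-tRNA synthetase joins 1 amino acid to its tRNAs and so supplies the ribosome with building blocks. Mammals keep separate nuclear genes for the cytosolic enzymes and for the enzymes that are imported into mitochondria, except that Gars and Kars make both forms from a single gene and that mitochondria make glutaminyl-tRNA by another route. Part of the cytosolic enzymes are held together in the multisynthetase complex on the scaffold proteins Aimp1, Aimp2 and Eef1e1. Many cytosolic synthetase genes are known targets of ATF4, the transcription factor that is made when phosphorylation of the initiation factor eIF2 slows translation, for instance when the kinase Gcn2 (Eif2ak4) senses uncharged tRNA. ATF4 works with C/EBP partners on a composite DNA element that is also found in genes of amino acid synthesis and uptake.

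Read totals recovered from the table lay between 8163016 and 13007604 per library and did not separate the ages. A synthetase gene had between 60 and 4470 reads in a library. Macrophage markers were abundant in all libraries, and 6 of 8 were higher in old, with summed normalized counts of 345257 to 430483 in old and 274834 to 349804 in young libraries. By the limma rule given below, 17.9% of all tested genes were higher in old and 17.6% were lower. All 7 B cell markers were higher in old, with sums of 1369 to 2944 in old and 51.8 to 59.3 in young libraries. Of 6 mast cell markers 5 were tested and higher in old (sums of 527 to 592 in old and 38.2 to 62.3 in young libraries). All 10 proliferation markers were lower in old, with sums of 3839 to 3983 in old and 24578 to 27534 in young libraries. The 8 T and NK cell markers stayed below the mean of 10 normalized counts, with sums of 40.6 to 69.2 in old and 3.38 to 9.05 in young libraries, and Trac and Ncr1 had 0 reads in the young libraries. Of 6 neutrophil markers S100a8 and Camp were analysed, and S100a9, Ly6g, Ngp and Retnlg were absent from the deposited values. S100a8 and Camp together summed to 509 to 653 in old and 186 to 238 in young libraries, almost wholly from S100a8. Camp stayed below the mean of 10 normalized counts and had 0 reads in the old libraries. Eosinophil markers summed to 25.4 to 35.9 in old and 3.38 to 9.65 in young libraries. Of these 4 markers Epx and Prg2 were absent from the deposited values. The difference came from Il5ra, which averaged 26.4 in old and 1.55 in young libraries, whereas Siglecf averaged 4.74 and 4.47. Dendritic cell markers summed to 14.0 to 17.1 in old and 7.61 to 13.2 in young libraries. Fibroblast and mesothelial markers summed to 683 to 771 in old and 662 to 804 in young libraries. Of these 8 markers 5 were tested, and Col3a1 and Pdgfra were higher in old while Col1a1 was lower. The part of these other cells and of proliferation in the values below was not tested, and in bulk RNA fewer cells of a type and less RNA per cell cannot be told apart. Old replicate 3 carried 1.34% of its reads on nuclear ribosomal RNA genes, against 0.0177% to 0.154% in each of the rest.

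Old macrophages carried less messenger RNA for most cytosolic synthetases, while few mitochondrial synthetases differed, in both directions. Of the 20 cytosolic genes 13 were lower in old, 0 were higher and 7 did not pass, at an adjusted p under 0.05 in limma with Benjamini-Hochberg adjustment over all 11795 tested genes. At an unadjusted p under 0.05 limma gave 2 cytosolic genes higher, while edgeR with its adjusted p gave 0 and DESeq2 gave 1. By the limma rule 17.6% of all tested genes were lower, 17.9% were higher and 35.5% differed in either direction. Of the 16 mitochondrial genes 1 was lower, 3 were higher and 12 did not pass. The median log2 fold change, old over young, was -0.37 over the cytosolic genes and -0.025 over the mitochondrial ones, beside 0.00014 over all tested genes. Fold changes are differences of mean log2(normalized count + 1). The 3 old and the 3 young libraries did not overlap for 14 cytosolic genes in the lower direction, against 23.6% of all tested genes, and 47.5% of tested genes did not overlap in either direction. In the higher direction they did not overlap for 1 cytosolic gene, Farsa, against 24.0% of all tested genes. Leaving out old replicate 3 gave 3 cytosolic genes higher, 3 mitochondrial genes lower and 4 mitochondrial genes higher. Of all 11741 genes then tested 2772 were higher and 2888 were lower. Leaving out young replicate 3 gave 1 cytosolic gene higher, 2 mitochondrial genes lower and 2 mitochondrial genes higher. Here 2088 of all 11846 tested genes were higher and 1909 were lower. Mitochondrial genes lower numbered 0 when old replicate 1, or either of young replicates 1 and 2, was left out, and mitochondrial genes higher numbered 2 without old replicate 1. In these 3 fits 1581, 1632 and 1486 of all tested genes were lower, and 1444 were higher without old replicate 1. Without both libraries numbered 3 the counts were 13 lower and 5 higher among the cytosolic genes, and 4 lower and 3 higher among the mitochondrial ones. Over all 11793 genes tested without them, 3387 were lower and 3573 were higher.

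**Figure D1:**
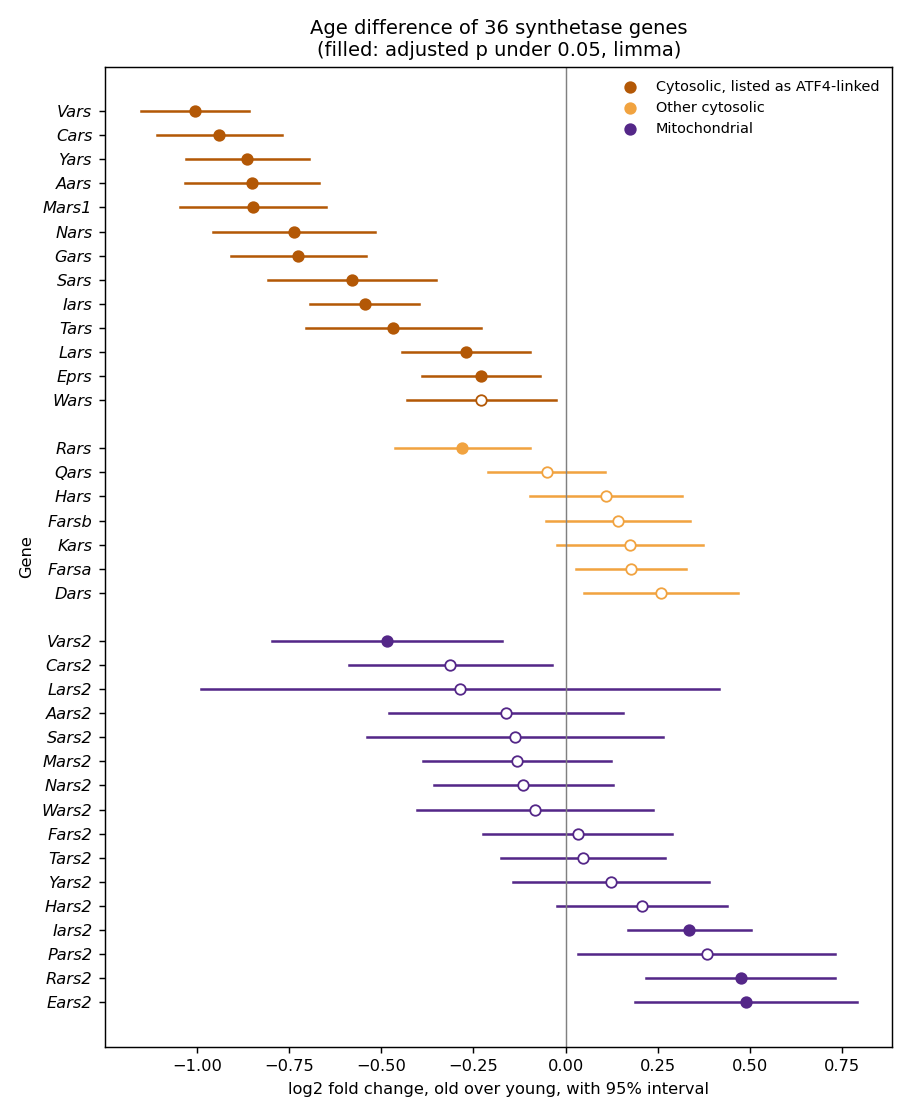
Log2 fold change of each of the 36 synthetase genes, old over young, with its 95% interval from limma, in blocks from top to bottom for cytosolic genes listed as linked to ATF4, other cytosolic genes and mitochondrial genes. Filled points passed at an adjusted p under 0.05. The first block lies wholly below 0, from -1.01 for Vars to -0.23 for Wars, and the other blocks lie on both sides of 0.

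The valyl-tRNA synthetase gene Vars (chromosome 17, 35000987 to 35016322) had the lowest fold change of the set. It had 721, 763 and 696 normalized counts in old replicates 1, 2 and 3, against 1473, 1424 and 1479 in young replicates 1, 2 and 3. The old mean was 0.498 times the young mean (log2 fold change -1.01 ± 0.065 SE, limma adjusted p = 3.51e-06). Cars, for cysteine (chromosome 7, 143557230 to 143600090), had 465, 470.1 and 512 normalized counts in old replicates 1, 2 and 3, against 879, 917 and 981 in young replicates 1, 2 and 3. Its old mean was 0.521 times the young mean (log2 fold change -0.94 ± 0.075 SE, limma adjusted p = 1.32e-05). Yars, for tyrosine (chromosome 4, 129189760 to 129219607), encodes an enzyme that in human cells can be split into fragments that act as cytokines. It had 435, 424 and 385 normalized counts in old replicates 1, 2 and 3, against 735, 762 and 766 in young replicates 1, 2 and 3, and its old mean was 0.550 times the young mean (limma adjusted p = 2.19e-05). For all 3 genes every old library lay far below every young one. A short stretch of Yars, 30 exon bases, is shared with C77080 on the other strand.

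Aars, for alanine (chromosome 8, 111033144 to 111057664), is an enzyme that also clears tRNA wrongly charged with serine. Aars had 1879.8, 1954 and 1680.3 normalized counts in old replicates 1, 2 and 3, against 3112, 3285 and 3552 in young replicates 1, 2 and 3. It averaged 1838 ± 142 normalized counts (SD, n = 3) in old macrophages, against 3316 ± 221 (SD, n = 3) in young ones. In limma this was a log2 difference of -0.85 ± 0.081 SE, at an adjusted p of 4.17e-05. The annotation gives Aars 1326 exon bases in common with Exosc6 on the same strand. Mars1, for methionine (chromosome 10, 127296221 to 127311786), charges both the initiator and the elongator tRNA. Its values were 649, 650.5 and 598 in the old libraries against 1099, 1046 and 1284 in the young ones, and limma gave -0.85 ± 0.088 SE on the log2 scale at an adjusted p of 7.44e-05. Mars1 shares 68 exon bases with its neighbour Ddit3 on the other strand, and Ddit3 was higher in old, by 0.38 on the log2 scale (limma adjusted p = 0.0284).

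Nars, for asparagine (chromosome 18, 64499647 to 64516652), had 2128, 2093 and 1823 normalized counts in old replicates 1, 2 and 3, against 3004, 3311 and 3777 in young replicates 1, 2 and 3. Its old mean was 0.599 times the young mean (log2 fold change -0.74 ± 0.098 SE, limma adjusted p = 3.54e-04). Gars, for glycine, which supplies both the cytosol and the mitochondria (chromosome 6, 55038007 to 55079500), had 1257, 1249.7 and 1146 normalized counts in old replicates 1, 2 and 3, against 1843, 1997 and 2209.7 in young replicates 1, 2 and 3. Here the old mean was 0.604 times the young mean and the limma adjusted p was 1.22e-04. No library of Nars or Gars crossed into the range of the other age.

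Serine, isoleucine and threonine enzymes fell by less. Sars (chromosome 3, 108424865 to 108445209) had 1488, 1517 and 1271 in the old libraries against 1867, 2205 and 2327 in the young ones, and its old mean was 0.668 times the young mean (limma adjusted p = 0.00178). Iars (chromosome 13, 49682100 to 49734267), part of the multisynthetase complex, had 1270.3, 1169 and 1161 in the old libraries against 1711, 1748 and 1792 in the young ones. Its libraries were tight within each age, and limma gave -0.55 ± 0.065 SE on the log2 scale at an adjusted p of 1.85e-04. Tars (chromosome 15, 11382301 to 11399665) had 903, 870.2 and 725 in the old libraries against 1039, 1132 and 1284 in the young ones (-0.47 ± 0.11 SE on the log2 scale, limma adjusted p = 0.00740). For each of these 3 genes the highest old library was below the lowest young one.

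**Figure D2:**
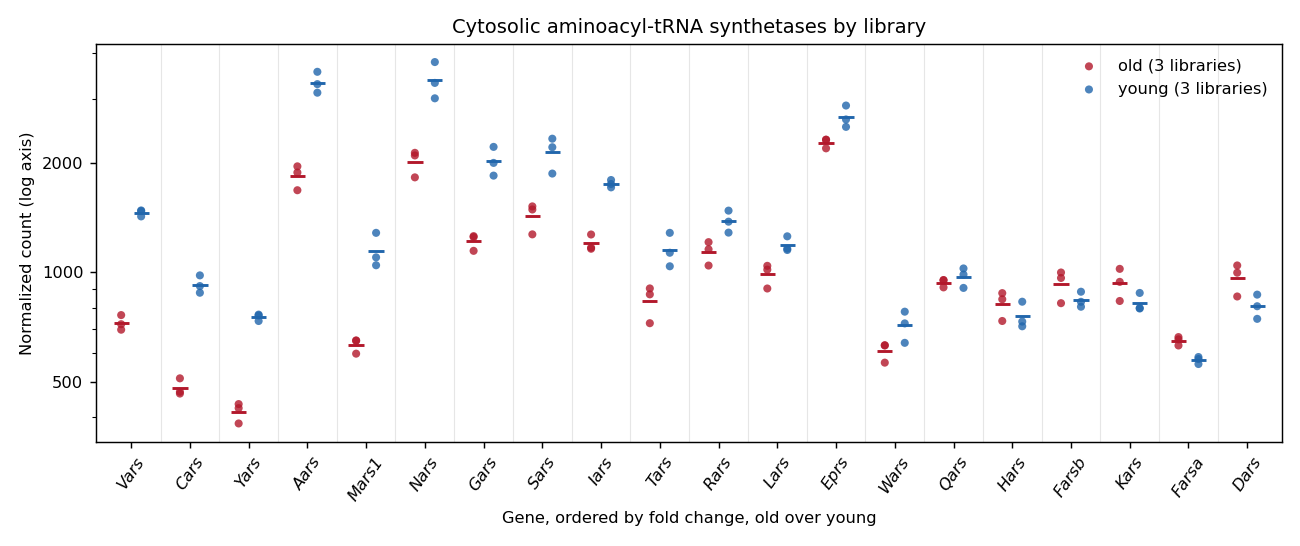
Normalized counts of the 20 cytosolic synthetase genes on a log axis, with 3 old libraries in red to the left of 3 young libraries in blue for each gene and a bar at each mean. Genes run from the lowest fold change (Vars) to the highest (Dars). The ages are apart from Vars to Wars and mix from Qars onward, except for Farsa.

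Smaller differences were seen for Rars, Lars and Eprs, which all belong to the multisynthetase complex. Rars, for arginine, had 1157, 1210.4 and 1044 in the old libraries against 1286, 1378 and 1477 in the young ones, and Lars, for leucine, whose human counterpart also reports leucine to mTORC1, had 1042, 1017 and 903 in the old libraries against 1152, 1162 and 1256 in the young ones. Eprs is a single large protein that charges both glutamate and proline tRNAs. It had 2309.9, 2314 and 2189.6 in the old libraries against 2508, 2628 and 2869.7 in the young ones. Their log2 fold changes were -0.28 for Rars, -0.27 for Lars and -0.23 for Eprs, with limma adjusted p-values of 0.0246, 0.0224 and 0.0312. The libraries of the ages did not overlap for any of the 3. These calls are near the threshold, and each was lost when young replicate 2 or young replicate 3 was left out, Rars also without old replicate 1 and Eprs also without either old replicate 1 or old replicate 2 (limma adjusted p from 0.0639 to 0.0949). Wars, for tryptophan, which interferon gamma induces in human cells, had 631, 630.0 and 565 in the old libraries against 724, 641 and 779.9 in the young ones. Its libraries did not overlap either, but Wars did not pass (log2 fold change -0.23, 95% interval -0.43 to -0.026, limma adjusted p = 0.0764). It passed without young replicate 2 (limma adjusted p = 0.0473) and in edgeR on whole reads (edgeR adjusted p = 0.0417).

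The remaining 6 cytosolic genes did not pass. Qars, for glutamine, had 952, 951 and 909 in the old libraries against 906, 986 and 1025 in the young ones, with a 95% interval of the log2 fold change from -0.21 to 0.11. Hars, for histidine, had 844, 877 and 735 in the old libraries against 711, 733 and 831 in the young ones, with a log2 fold change of 0.11 (-0.096 to 0.32). Hars shares 195 exon bases with Hars2, its head-to-head neighbour on the other strand. Farsa and Farsb encode the alpha and beta subunits of the phenylalanine enzyme, which work in equal number. Farsa had 655, 630.0 and 664 in the old libraries against 560.3, 578 and 586 in the young ones, so every old library was above every young one, with a log2 fold change of 0.18 (0.028 to 0.33, limma adjusted p = 0.0651). Farsb had 999, 965 and 823 in the old libraries against 805, 830.0 and 885 in the young ones and overlapped (log2 fold change 0.14, -0.054 to 0.34). Kars, for lysine, the other gene that serves the cytosol and the mitochondria, had 942, 1022 and 834 in the old libraries against 796, 798 and 878 in the young ones, with a 95% interval from -0.022 to 0.37. Dars, for aspartate, had 998, 1045 and 859 in the old libraries against 745, 807 and 869 in the young ones and the highest fold change of the cytosolic genes, 0.26 (0.050 to 0.47, limma adjusted p = 0.0556). Dars passed in the higher direction without old replicate 3 (limma adjusted p = 0.00349) and without young replicate 3 (limma adjusted p = 0.0414), and Farsb and Kars passed without old replicate 3 (limma adjusted p = 0.0214 and 0.0161).

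A list of 13 cytosolic synthetases was drawn up from general knowledge of ATF4 targets. It was not compared with published target sets and was made with earlier results of these data known, so the counts, medians and ratio below describe this list only. The list holds Aars, Cars, Eprs, Gars, Iars, Lars, Mars1, Nars, Sars, Tars, Vars, Wars and Yars. Of these 13, 12 were lower in old, 0 were higher and Wars did not pass, with a median log2 fold change of -0.72. Of the other 7 (Dars, Farsa, Farsb, Hars, Kars, Qars and Rars), 1 was lower, Rars, 0 were higher and 6 did not pass, with a median of 0.14. The background over all tested genes was 17.6% lower. With 1 library left out, 10 to 12 of the 13 were lower, and 12 were lower without both libraries numbered 3. The normalized counts summed over the 13 genes and divided by the sum over the 7 others gave 2.32, 2.26 and 2.33 in old replicates 1, 2 and 3, against 3.64, 3.64 and 3.72 in young replicates 1, 2 and 3. That ratio averaged 2.30 ± 0.0381 (SD, n = 3) in old libraries and 3.67 ± 0.0447 (SD, n = 3) in young ones, and the ages were far apart against the spread within each.

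**Figure D3:**
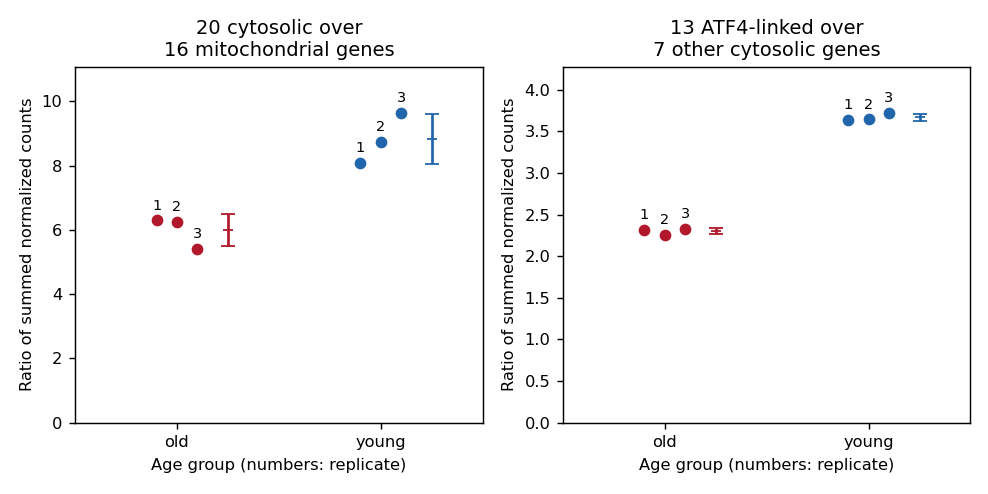
Ratios of summed normalized counts in each library, for the 20 cytosolic over the 16 mitochondrial genes on the left and for the 13 ATF4-linked over the 7 other cytosolic genes on the right. Old libraries are left of young ones, digits give the replicate, and bars show the mean ± SD of 3 libraries. Both ratios are lower in all old libraries than in any young one, and the right-hand ratio varies least within an age.

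Promoter sequences were set beside this list because ATF4 and C/EBP proteins bind a shared element whose core reads TGATGNAA. Windows from 250 bases before to 50 after the gene start (RefSeq, GRCm38.p6) were on hand for 27 of the 36 genes and were searched for TGATGNAA on both strands, and no other motif was searched. The letters occurred in 5 of 13 cytosolic genes with a window, namely Aars, Gars, Iars, Tars and Yars, and in 0 of 14 mitochondrial genes. Among all genes with a window 4.51% held it, and among the 8814 of them that were tested for age 2.83% did. All 5 genes are on the ATF4-linked list and were lower in old, whereas Eprs, Mars1 and Sars, which were also lower, had no match in the window. No window was on hand for Cars, Lars, Nars, Rars and Vars, also lower in old, so these were not searched. Hars, Wars, Hars2 and Pars2 had none either. Of the ATF4-linked list 8 genes had a window. The 5 cytosolic genes with a window that did not pass (Dars, Farsa, Farsb, Kars and Qars) had no match. A match describes letters and is not evidence of binding. The stretches below run 5′ to 3′ on the strand of the gene, from 130 bases before to 20 after its RefSeq start. Each match to the motif or its reverse complement is in capitals. Starts and transcript positions here are those of RefSeq, which need not be the edge of the gene span given above. For Aars and Yars the printed stretch lies wholly inside that span. They lie at chr8:111033712-111033861 (plus strand) for Aars, chr6:55037871-55038020 (plus strand) for Gars, chr13:49682000-49682149 (plus strand) for Iars, chr15:11399639-11399788 (minus strand) for Tars and chr4:129189773-129189922 (plus strand) for Yars.
Aars: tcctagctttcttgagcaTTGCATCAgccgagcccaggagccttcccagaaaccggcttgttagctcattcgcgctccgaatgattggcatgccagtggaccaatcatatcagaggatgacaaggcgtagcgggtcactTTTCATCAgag
Gars: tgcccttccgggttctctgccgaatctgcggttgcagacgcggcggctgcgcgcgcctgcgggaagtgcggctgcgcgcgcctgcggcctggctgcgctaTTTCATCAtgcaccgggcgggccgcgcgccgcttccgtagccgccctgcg
Iars: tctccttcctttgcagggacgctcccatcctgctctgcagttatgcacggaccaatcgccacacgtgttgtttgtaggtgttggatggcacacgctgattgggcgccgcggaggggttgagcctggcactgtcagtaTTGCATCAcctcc
Tars: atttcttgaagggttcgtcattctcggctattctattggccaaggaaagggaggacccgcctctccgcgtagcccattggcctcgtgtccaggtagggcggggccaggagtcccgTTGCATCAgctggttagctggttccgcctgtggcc
Yars: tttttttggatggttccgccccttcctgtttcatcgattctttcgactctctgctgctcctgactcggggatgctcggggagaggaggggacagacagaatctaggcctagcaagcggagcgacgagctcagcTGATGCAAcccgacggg
The match begins 112 bases before the start and again at position 10 of the transcript in Aars, 30 bases before the start in Gars, at position 8 of the transcript in Iars, 15 bases before the start in Tars and at position 4 of the transcript in Yars. In Aars, Gars, Iars and Tars the motif reads on the strand opposite to the gene, and in Yars on the same strand.

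The multisynthetase complex holds members of both kinds. Of the 8 synthetases in the complex 5 were lower in old and 3 did not pass, with a median log2 fold change of -0.25. Of the 12 outside it 8 were lower and 4 did not pass, with a median of -0.65. Over all tested genes 17.6% were lower, and no difference between members inside and outside the complex, or between catalytic classes, was tested. Within the complex the members on the ATF4-linked list, Eprs, Iars, Lars and Mars1, were all lower, from -0.85 for Mars1 to -0.23 for Eprs. That list was made with earlier results of these data known, so this split describes the list only. Of the other members Dars, Kars, Qars and Rars only Rars passed, at -0.28, a lower value than those of the listed Lars (-0.27) and Eprs. The scaffold genes did not pass in limma, edgeR or DESeq2 (0 of 3, with 1 at an unadjusted p under 0.05 in limma), with log2 fold changes of 0.081 for Aimp1 and 0.31 for Eef1e1. Eef1e1 passed in the higher direction without old replicate 3 (log2 fold change 0.46, limma adjusted p = 0.00155). By catalytic class, 7 of 9 cytosolic class I genes and 5 of 10 class II genes were lower, with medians of -0.55 and -0.18. Eprs joins both classes in 1 protein and is in neither count.

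Of the 16 mitochondrial genes 3 were higher in old, a share close to the 17.9% of all tested genes, and 1 was lower, against 17.6%. Ears2, for glutamate (chromosome 7, 122037213 to 122067263), also charges the mitochondrial glutamine tRNA with glutamate in the first step of making glutaminyl-tRNA there. It had 95.6, 83.8 and 87.6 normalized counts in old replicates 1, 2 and 3, against 63.4, 65.8 and 60.0 in young replicates 1, 2 and 3. Limma gave 0.49 ± 0.13 SE on the log2 scale at an adjusted p of 0.0185. Rars2, for arginine (chromosome 4, 34614957 to 34660167), had 292, 258 and 231 normalized counts in old replicates 1, 2 and 3, against 180.1, 175 and 205 in young replicates 1, 2 and 3. Its old mean was 1.39 times the young mean (limma adjusted p = 0.0100). Iars2, for isoleucine (chromosome 1, 185284726 to 185329396), had 1189, 1168 and 1074 in the old libraries against 866, 884 and 970.1 in the young ones (log2 fold change 0.34 ± 0.074 SE, limma adjusted p = 0.00665). Of its exon bases 22.9% are shared with Rab3gap2 on the other strand, which averaged 2132 normalized counts over the 6 libraries and was itself higher in old by 0.31 on the log2 scale (limma adjusted p = 0.00626). Without a stated strand setting the reads of that stretch cannot be told apart. The Ears2 call was lost without old replicate 1 (limma adjusted p = 0.0772) and without young replicate 3 (limma adjusted p = 0.0523). It was also lost in DESeq2 (DESeq2 adjusted p = 0.0967) and under the replicate block (limma adjusted p = 0.0776). Pars2, for proline, did not overlap between the ages, with 90.8, 87.2 and 76.2 in the old libraries against 60.4, 75.5 and 59.2 in the young ones, but did not pass (log2 fold change 0.38, 0.035 to 0.73, limma adjusted p = 0.0832), and it passed without old replicate 3 (limma adjusted p = 0.0410).

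Vars2, for valine (chromosome 17, 35655634 to 35667592), was the mitochondrial gene that was lower in old. It had 78.9, 105 and 96.5 normalized counts in old replicates 1, 2 and 3, against 135, 137 and 120.0 in young replicates 1, 2 and 3. Limma gave -0.48 ± 0.14 SE on the log2 scale at an adjusted p of 0.0229. The call was lost when old replicate 1, or either of young replicates 1 and 2, was left out (limma adjusted p from 0.0748 to 0.0900). It was also lost in DESeq2 (DESeq2 adjusted p = 0.0627). Cars2, for cysteine, had 161, 157 and 187 in the old libraries against 230.3, 218 and 181 in the young ones and did not pass (log2 fold change -0.31, -0.59 to -0.038). Cars2 passed without old replicate 3 (-0.39, limma adjusted p = 0.0197) and without young replicate 3 (-0.42, limma adjusted p = 0.0281).

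Lars2, for leucine (chromosome 9, 123366927 to 123462666), varied most within an age. It had 122, 116 and 271 normalized counts in old replicates 1, 2 and 3, against 248, 195 and 144 in young replicates 1, 2 and 3. Old replicate 3, the library with 1.34% of reads on ribosomal RNA genes, was above all young libraries, whereas the other old libraries were below them. With all libraries Lars2 did not pass (log2 fold change -0.29, -0.99 to 0.42, limma adjusted p = 0.504). Without old replicate 3 it was lower in old, at -0.68 on the log2 scale (limma adjusted p = 0.00751). The part of ribosomal RNA in the Lars2 values was not tested.

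The other 9 mitochondrial genes, Aars2, Fars2, Hars2, Mars2, Nars2, Sars2, Tars2, Wars2 and Yars2, did not pass. Hars2, for histidine, had 217, 248 and 263 in the old libraries against 201, 204 and 225 in the young ones. Aars2, for alanine, had 105, 132 and 138 in the old libraries against 151, 146 and 123 in the young ones. The old and young libraries of both genes overlapped. Log2 fold changes of the 9 genes ran from -0.16 for Aars2 to 0.21 for Hars2, with -0.14 for Sars2, -0.13 for Mars2, -0.11 for Nars2, -0.083 for Wars2, 0.033 for Fars2, 0.048 for Tars2 and 0.12 for Yars2. The widest of their 95% intervals was that of Sars2, for serine, from -0.54 to 0.26, and the narrowest was that of Tars2, for threonine, from -0.17 to 0.27. Sars2 had 93.2, 86.3 and 109 in the old libraries against 137, 95.6 and 89.6 in the young ones, and young replicate 1 alone stood above the other libraries.

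**Figure D4:**
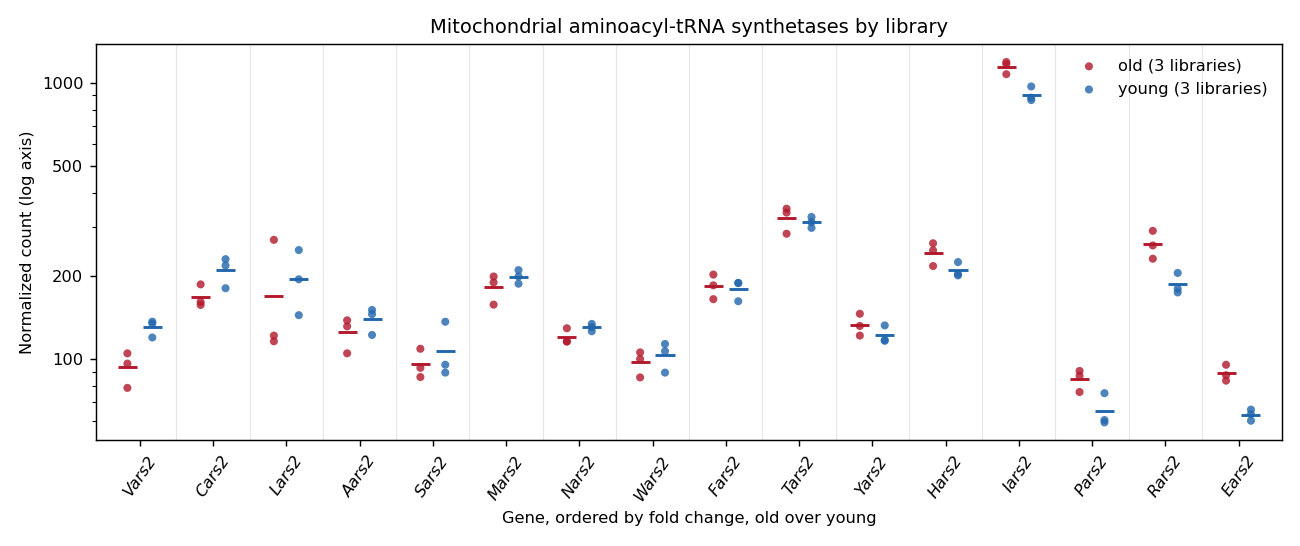
Normalized counts of the 16 mitochondrial synthetase genes on a log axis, with 3 old libraries in red to the left of 3 young libraries in blue for each gene and a bar at each mean. Genes run from the lowest fold change (Vars2) to the highest (Ears2). Most genes overlap between the ages, and Lars2 has 1 old library far above the other old ones.

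Enzymes for the same amino acid could be compared between the compartments in 17 pairs of a cytosolic and a mitochondrial gene, counting Eprs with Ears2 and Pars2, and Farsa and Farsb with Fars2. In 9 pairs the cytosolic gene was lower in old and the mitochondrial gene did not pass. In 3 pairs (Iars with Iars2, Rars with Rars2 and Eprs with Ears2) the cytosolic gene was lower and the mitochondrial gene was higher. Of these genes only Iars kept its call under the replicate block (limma adjusted p from 0.0509 for Rars2 to 0.149 for Eprs among the others). Rars, Eprs and Ears2 also lost their calls when certain single libraries were left out. Valine was the amino acid with both genes lower, and in 4 pairs neither gene passed. Iars divided by Iars2 gave 1.07, 1.00 and 1.08 in old replicates 1, 2 and 3, against 1.98, 1.98 and 1.85 in young replicates 1, 2 and 3. Yars divided by Yars2 gave 3.57, 2.90 and 2.91 in old replicates 1, 2 and 3, against 6.30, 6.48 and 5.77 in young replicates 1, 2 and 3. In both ratios every old library was below every young one. Iars2 is the gene that shares exon bases with Rab3gap2. Vars divided by Vars2 gave 9.14, 7.26 and 7.21 in old replicates 1, 2 and 3, against 10.9, 10.4 and 12.3 in young replicates 1, 2 and 3, lower in each old library although both genes were lower. These ratios are examples. The ages overlapped in the ratios of Farsa and Farsb to Fars2, Hars to Hars2, Lars to Lars2, Sars to Sars2 and Wars to Wars2. In the remaining pairs every old library was below every young one. Whether a pair's ratio differed between the ages was not tested by a model, and the smallest p that an exact permutation of 3 against 3 libraries allows is above the threshold of 0.05.

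**Figure D5:**
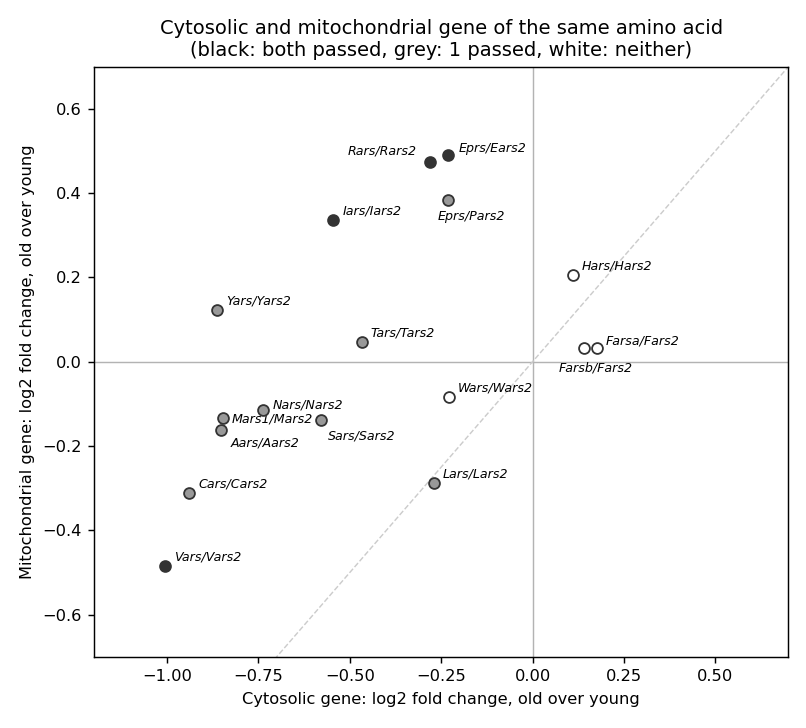
Log2 fold change, old over young, of the cytosolic gene on the x axis and of the mitochondrial gene for the same amino acid on the y axis, for 17 pairs. Black points mark pairs in which both genes passed at an adjusted p under 0.05, grey points 1 of them and white points neither, and the dashed line marks equal change. Iars/Iars2, Rars/Rars2 and Eprs/Ears2 lie to the left of 0 and above it.

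Summed over genes, the 20 cytosolic synthetases had 21725, 21823 and 19524 normalized counts in old replicates 1, 2 and 3, against 26955, 28366 and 30906 in young replicates 1, 2 and 3. The 16 mitochondrial ones had 3451, 3488 and 3611 in the old against 3332, 3249 and 3209 in the young libraries. The cytosolic sums were lower and the mitochondrial sums higher in every old library than in any young one. The mitochondrial difference rests on Iars2, the gene that shares exon bases with Rab3gap2. Without it, a choice made after seeing the values, the sums were 2262, 2319 and 2536 in the old against 2465, 2366 and 2238 in the young libraries, which overlapped. Cytosolic over mitochondrial gave 6.30, 6.26 and 5.41 in old replicates 1, 2 and 3, against 8.09, 8.73 and 9.63 in young replicates 1, 2 and 3. Without Iars2 that ratio was 9.60, 9.41 and 7.70 in old replicates 1, 2 and 3, against 10.9, 12.0 and 13.8 in young replicates 1, 2 and 3, still lower in every old library. Library differences within an age were shared by the cytosolic genes. Young replicate 3 was the highest young library for 20 of 20 cytosolic genes and old replicate 3 the lowest old library for 18 of 20, against 5 and 4 of 16 mitochondrial genes. Without both libraries the log2 fold changes were higher for Dars (0.40), Kars (0.30), Farsb (0.26) and Hars (0.25) than with all libraries, and the cytosolic median log2 fold change was -0.23.

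Levels were compared between genes per kilobase of annotated exon. The median cytosolic gene had 191 normalized counts per kilobase in old and 241 in young macrophages, and the median mitochondrial gene 26.8 in old and 29.2 in young. Nars was highest in both, with 463 per kilobase in old and 772 in young. Among the mitochondrial genes Iars2 was highest, with 129 in old and 102 in young, and it is the gene whose exons Rab3gap2 shares. Yars was the lowest cytosolic gene in old at 69.8 and Farsa the lowest in young at 127. Exon lengths come from all annotated transcripts, which understates genes with long rare isoforms.

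Genes that surround the synthetases in the pathway were taken from further lists. Sensors and regulators of eIF2 phosphorylation had 2 members lower and 1 higher of 9, a share close to the 35.5% of all tested genes called in either direction. Eif2ak4, the kinase Gcn2 that senses uncharged tRNA, averaged 339 ± 26.5 normalized counts (SD, n = 3) in old macrophages, against 494 ± 64.8 (SD, n = 3) in young ones. It was lower in old (-0.54 ± 0.11 SE on the log2 scale, limma adjusted p = 0.00451). Ppp1r15b, a phosphatase subunit that removes the phosphate from eIF2, was lower in old at a log2 fold change of -0.32, and its inducible relative Ppp1r15a was higher at 0.43 (limma adjusted p = 0.00423 and 0.0266). The Ppp1r15a call was lost on leaving out old replicate 1 or either of young replicates 1 and 2 (limma adjusted p from 0.0825 to 0.110) and in DESeq2 (DESeq2 adjusted p = 0.0538).

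Of 22 listed ATF4 regulators and targets other than synthetases 21 were tested, 15 were lower in old and 2 were higher, against 17.6% and 17.9% of all tested genes, with a median log2 fold change of -0.85. The 4 with the smallest adjusted p were Slc7a5, an amino acid transporter, at -3.40, Phgdh and Shmt2, enzymes of serine synthesis and serine use, at -3.84 and -2.10, and Asns, asparagine synthetase, at -2.56. The 2 higher members, named after their values were seen, were Atf3 at 0.96 and Ddit3 at 0.38. DESeq2 gave 13 lower and 1 higher, with Ddit3 not passing (DESeq2 adjusted p = 0.112). Atf4 itself had 2095, 1953 and 1815 in the old libraries against 2099, 2163 and 2392 in the young ones, so the ages did not overlap, but it did not pass (log2 fold change -0.18, -0.36 to -0.0043, limma adjusted p = 0.103). It passed under quantile normalization (limma adjusted p = 0.0183). ATF4 is controlled largely at translation, which these libraries do not measure.

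In tRNA processing and export 2 of 10 genes were lower and 0 were higher in limma, edgeR and DESeq2, also at an unadjusted p under 0.05, and the share lower is close to the 17.6% of all tested genes. Xpot, which exports tRNA from the nucleus, averaged 1218 ± 62.1 normalized counts (SD, n = 3) in old macrophages, against 1548 ± 71.6 (SD, n = 3) in young ones (log2 fold change -0.35, limma adjusted p = 0.00407). Rtcb, the ligase that joins the exons of spliced tRNAs, averaged 1068 ± 64.4 normalized counts (SD, n = 3) in old macrophages, against 1543 ± 108 (SD, n = 3) in young ones (log2 fold change -0.53, limma adjusted p = 6.38e-04). Of 4 genes that complete mitochondrial glutaminyl-tRNA or formylate the initiator tRNA, 1 was higher in old and the other 3 did not pass. Over all tested genes 17.9% were higher. The higher gene was Gatb, a subunit of the amidotransferase that acts after Ears2, at 0.37 on the log2 scale (limma adjusted p = 0.0132). The Gatb call was lost without young replicate 2 (limma adjusted p = 0.0637) and in DESeq2 (DESeq2 adjusted p = 0.0704). In the list of other cytosolic synthetase and editing genes 0 of 4 passed in limma, edgeR or DESeq2 (1 at an unadjusted p under 0.05 in limma), with log2 fold changes of 0.019 for Tarsl2, a relative of Tars, and 0.35 for Dtd2, which removes wrongly attached amino acids.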

How the data were processed

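Messenger RNA of 6 libraries, 3 per age, was prepared with the TruSeq protocol, per the labels. The deposited table holds signal values, that is counts normalized by the authors by library size factors. DESeq2 and the mouse build mm10 are named in the submitters' processing notes. The sources used here do not give the aligner, counter, annotation release or strand setting. Each column is made of whole multiples of a step, and all values gave whole reads within 0.01 reads. A symbol was found for 19917 identifiers and none for 56. Mars1 was matched to its older symbol Mars. Positions and exon overlaps come from GENCODE M21 on GRCm38 (the assembly of mm10), counted from 1. Exons of 13 members share bases with another gene, so their reads are uncertain to that extent.

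Ages were compared in R 4.3.3 by limma 3.58.1, with its mean-variance trend, on log2(normalized count + 1), over genes with a mean of at least 10, old minus young, with Benjamini-Hochberg adjustment at 0.05. The procedure was run on simulated data with changes of known size. That check set a bar for recovery only at changes larger than those of the synthetases, so it does not cover changes of their size. Alternatives were other pseudocounts (0.5, 5), filters at 0 and at 50, quantile or median scaling, no trend, the replicate block, libraries left out, and edgeR 4.0.16 and DESeq2 1.42.0 on whole reads. All members are named. Of each pathway list up to 4 passing genes with the smallest adjusted p are named, or the 2 with the highest mean where none passed, and Atf4 and Myc always. Members and lists were chosen with earlier results of these data known. Counts for the ATF4-linked list and the ATF4 target list under the alternatives were added after seeing the data.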

Additional observations from a re-analysis of the deposited data

How the results depend on the processing

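Of 17 members that passed, 10 kept their direction and their call under all 17 alternatives, and all of them were cytosolic genes lower in old. The number of cytosolic genes lower in old was 10 to 14 over these alternatives, with 10 under the replicate block, 14 in edgeR and 13 in DESeq2. The number of cytosolic genes higher in old was 0, but 1 with a mean of at least 50 and in DESeq2, 2 under quantile normalization, 3 under median centring and 5 without both libraries numbered 3. Mitochondrial genes lower in old numbered 1, but 0 under the replicate block and in DESeq2 and 4 without both libraries numbered 3. Mitochondrial genes higher in old numbered 3, but 0 under the replicate block, 2 in DESeq2 and 4 under median centring. Calls over all tested genes shifted too. Those higher in old numbered 2107 in the main setting, 1281 under the replicate block, 2463 under quantile normalization and 2724 under median centring. Without both libraries numbered 3 there were 3573 higher and 3387 lower, against 2076 lower in the main setting. The cytosolic median log2 fold change moved to -0.23 without both libraries numbered 3. With 1 library left out, cytosolic genes numbered 10 to 13 lower and 0 to 3 higher, mitochondrial genes 0 to 3 lower and 2 to 4 higher, the cytosolic median ran from -0.43 to -0.30 and the mitochondrial median from -0.067 to 0.032. The causes of these shifts were not tested.

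Values near 0 changed sign without passing for Qars (0.0032 under median centring, 0.0098 without both libraries numbered 3), Fars2 (-0.038 without old replicate 2, -0.040 without young replicate 3), Sars2 (0.049 without young replicate 1), Tars2 (-0.0099 without old replicate 3, -0.0087 without both libraries numbered 3), Wars2 (0.0029 without old replicate 1), Gfm1 (-0.0018 without young replicate 1) and Tarsl2 (-0.0052, -0.067 and -0.080 without old replicate 1, old replicate 2 and young replicate 1). With 1 library left out these values ran from -0.040 to 0.11 for Fars2, -0.25 to 0.049 for Sars2, -0.0099 to 0.14 for Tars2, -0.18 to 0.0029 for Wars2, -0.0018 to 0.13 for Gfm1 and -0.080 to 0.13 for Tarsl2. Eef1a1 was -0.41 under quantile normalization (limma adjusted p = 0.0130), a shift whose cause was not tested. The labels do not say that replicate numbers pair the libraries, so the main comparison used no block. Deviations from the group means of old and young libraries with the same number correlated at -0.382, -0.361 and -0.676 across the tested genes. With 3 libraries per age the deviations of an age sum to 0, which ties these correlations to each other. They cannot decide whether libraries with the same number share a batch. The block lowered the calls over all genes to 2643, against 4183 without it, and leaving out both libraries numbered 3 gave 6960. With 3 libraries per age, differences as small as those of Farsa or Dars were near the limit of what could be called.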

Other observations

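Translation factors next to the synthetases had no member that passed with all libraries and the values as deposited. Over all tested genes 35.5% were called in either direction. Of 6 cytosolic elongation factor genes 0 passed in limma, edgeR or DESeq2, with limma adjusted p-values from 0.280 to 0.937 and 0 below an unadjusted p of 0.05. Eef1a1, which carries charged tRNA to the ribosome, averaged 37543 ± 4785 normalized counts (SD, n = 3) in old macrophages, against 34256 ± 4096 (SD, n = 3) in young ones, and Eef2, which moves the ribosome along, averaged 16765 ± 1716 normalized counts (SD, n = 3) in old macrophages, against 18440.1 ± 939 (SD, n = 3) in young ones. Under quantile normalization Eef1a1 and Eef2 were lower in old at -0.41 and -0.47 on the log2 scale (limma adjusted p = 0.0130 and 0.00139). Without both libraries numbered 3 Eef1a1 was instead higher in old at 0.33 (limma adjusted p = 2.21e-04). Of 9 mitochondrial translation factor genes 0 passed in limma, edgeR or DESeq2 (1 at an unadjusted p under 0.05 in limma), with log2 fold changes of 0.048 for Gfm1 and 0.12 for Gfm2, both elongation or recycling factors. Gfm1 passed in the higher direction without both libraries numbered 3 (0.17, limma adjusted p = 0.0398).

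MYC is a growth regulator that also acts on genes of protein synthesis. Of 8 genes of MYC and its partners 1 was higher in old and 2 were lower, close to the 35.5% of all tested genes called in either direction. Myc itself had 274, 317 and 238 in the old libraries against 254, 259 and 214 in the young ones, which overlapped (log2 fold change 0.18, -0.10 to 0.46, limma adjusted p = 0.285). Mxd3, a MAX partner tied to dividing cells, averaged 10.6 ± 4.79 normalized counts (SD, n = 3) in old macrophages, against 53.6 ± 3.41 (SD, n = 3) in young ones (limma adjusted p = 5.55e-04). Mnt was lower at a log2 fold change of -0.32 and Mxd4 higher at 0.33, and both calls were lost when any of several single libraries was left out, among them old replicate 1 (limma adjusted p = 0.132 for Mnt and 0.0535 for Mxd4).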
